A study of Mus musculus with 4 samples.

Results

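Nes, Vim, Fabp7, Pax6, Hopx, Prom1, Msi1, Msi2 and Nr2e1 are genes by which neural stem cells and radial glia are recognised. They were taken by symbol from a table of 26815 entries that compares mouse neural stem cells carrying an shRNA against Foxp1 with cells carrying a scrambled shRNA. All 9 were found, each as 1 entry, and 8 of them were among the 15315 entries that the authors tested. Prom1 was listed but not tested.

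Radial glia are the stem cells of the developing cortex. Their cell bodies divide beside the ventricle and their long fibres reach the pial surface and guide newborn neurons. They share a scaffold of the intermediate filament proteins nestin and vimentin, a lipid carrier, Fabp7, and the transcription factor Pax6, which sets the balance between self-renewal and neuron production. Nr2e1 (also called Tlx) is an orphan nuclear receptor that keeps neural stem cells dividing, and the Musashi proteins Msi1 and Msi2 bind mRNAs and repress their translation. Hopx, an atypical homeodomain protein that does not bind DNA itself, marks outer radial glia and quiescent stem cells, and Prom1 (CD133) is a membrane protein of apical protrusions.

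The cells were cortical stem cells of CD-1 mouse embryos at E14.5, bought from a supplier and kept in EGF and bFGF as a monolayer on poly-L-ornithine and laminin. The series held 4 libraries of polyadenylated RNA in 2 groups. In the first group, 2 libraries came from cells given a lentivirus with the scrambled shRNA SHC002, and in the second, 2 libraries came from cells given a lentivirus with the shRNA pLKO.1_sh_ex15 against Foxp1, a forkhead transcription factor. Both groups carried a lentiviral insert and were selected in puromycin at 0.5 µg/mL. Foxp1 was addressed by a single shRNA and set against a single scrambled shRNA. The cells were a purchased stock expanded in culture, and the duplicates were different passages of it. The deposited table sets a condition named q2 against one named q1, with 1 row of values per gene. No source used here ties either name to an shRNA, so directions are given as q2 relative to q1. Levels per condition and per library were not used, the spread between the duplicates could therefore not be printed, and the read depth is unknown. For Foxp1 itself the authors' deposited table gave a log2 fold change of -2.03, 4.09-fold lower in q2 (Cuffdiff q = 0.00162).

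Hopx and Nes were called higher in q2 and Fabp7 was called lower, at a Cuffdiff q under 0.05 in the authors' deposited table. Hopx was 2.24-fold higher and Nes 1.68-fold higher in q2, whereas Fabp7 was 2.19-fold lower, in that table. Vim, Nr2e1, Pax6, Msi1 and Msi2 were tested and not called. Of the 8 tested members 3 were called, 2 higher and 1 lower, against 7.63% of all 15315 tested entries called in either direction, 4.24% higher and 3.39% lower. The count is small, so the share of members called is given as a description. RNA came from whole cultures, in which fewer cells of a type and less RNA per cell cannot be told apart.

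**Figure D1:**
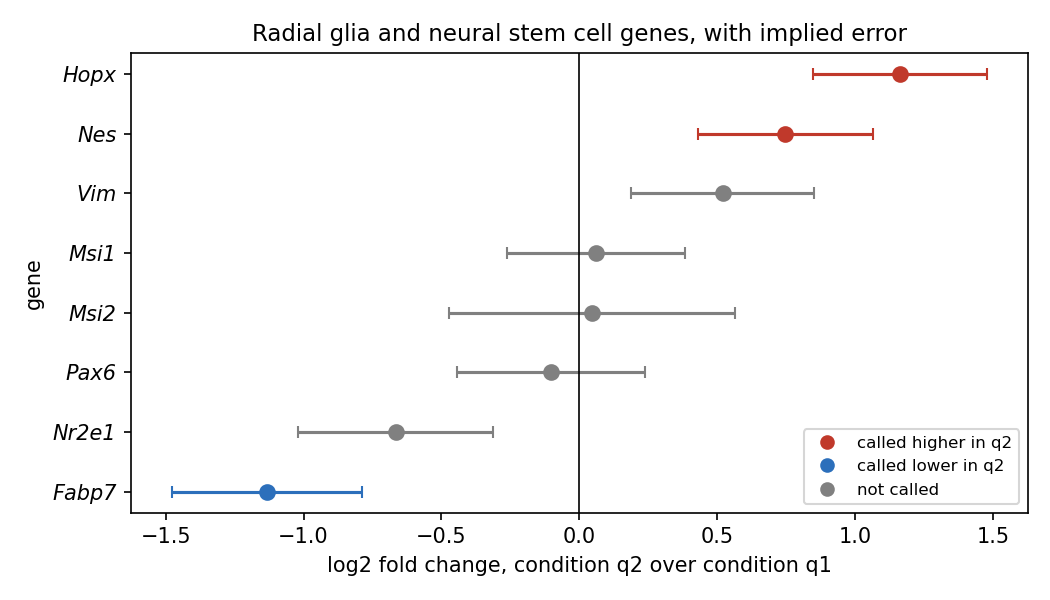
The 8 tested genes (y axis) by their q2 over q1 log2 fold change (x axis), taken from the authors' deposited table. Each gene is a point, in red (called higher), blue (called lower) or grey (no call), and the bar through it spans 1 error either way, as implied by fold change and statistic; Hopx at 1.16 and Fabp7 at -1.13 lie at the ends, and Msi1, Msi2 and Pax6 lie within 1 error of 0.

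The 8 tested genes did not move as a block. Their log2 fold changes ran from -1.13 to 1.16 in the authors' deposited table, 5 positive and 3 negative, with a median of 0.05 against -0.05 over all tested entries. Their median absolute log2 fold change was 0.59, against 0.32 over all tested entries. Dividing a deposited log2 fold change by its statistic gives the error on the log2 scale that the authors' statistic implies. This error was between 0.32 and 0.35 for 7 of the 8 genes and 0.52 for Msi2, with a median of 0.34 against 0.38 over all tested entries. An unadjusted Cuffdiff p under 0.05 was reached by 5 of the 8, namely the 3 called genes with Vim and Nr2e1. The authors' p does not follow from the implied error alone. For Nes the Cuffdiff p was 0.0008, against 0.0186 when p was taken from a normal distribution of the statistic.

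**Figure D2:**
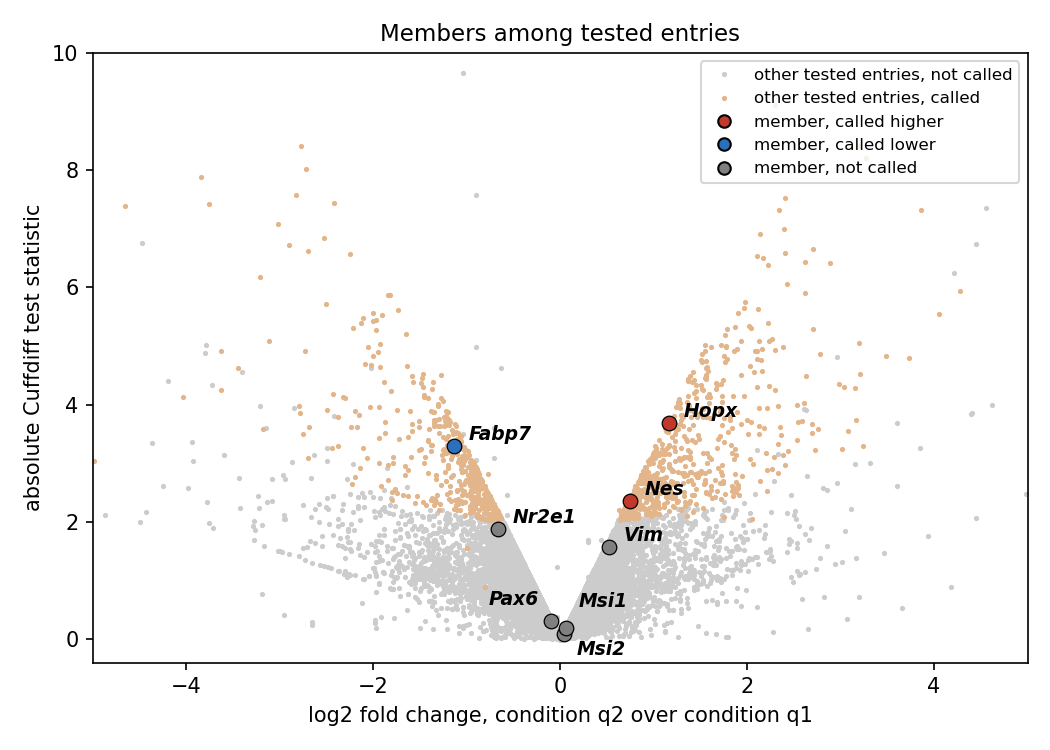
Size of the Cuffdiff statistic regardless of sign (y axis) and q2 over q1 log2 fold change (x axis), both from the authors' deposited table. Drawn are 15175 tested entries, with 22 beyond the axes and 118 without a finite value left out. Small dots are tested entries, tan where called, and the large labelled ones are the 8 members; Hopx (statistic 3.68), Nes (2.35) and Fabp7 (-3.29) lie among the called entries, and Nr2e1 (-1.88) lies just under them.

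Nes encodes nestin, the intermediate filament protein of dividing neural progenitors (chromosome 3, 87971093 to 87980451 in build GRCm38, plus strand). In the authors' deposited table it was at 0.75 on the log2 scale, with an implied error of 0.32 and a statistic of 2.35 (Cuffdiff q = 0.0157). It lay near the weak end of the called genes, at position 583 when the 649 entries called higher are ranked by fold change. Among 4628 tested entries whose implied error was within 5% of that of Nes, the smallest absolute log2 fold change called was 0.64 and the largest not called was 0.71, so Nes stood just above that band. Nes lost its call once a trend of fold change with transcript GC content was removed, at 0.62 (recomputed q = 0.112). Such a recomputed q comes from the shifted fold change over its implied error, adjusted again over all tested entries.

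Vim encodes vimentin, with which nestin assembles into filaments (chromosome 2, 13574311 to 13582826, plus strand). The authors' deposited table put Vim at 0.52, or 1.43-fold higher in q2, with an implied error of 0.33 (Cuffdiff q = 0.176, unadjusted p = 0.0255). It has the sign of Nes and a smaller value, and it was not called. A fixed list held 16 other genes of intermediate filaments and of proteins that cross-link them. Of these 7 were tested, 1 was called higher and 1 lower, and their median was 0.52. The called members in the authors' deposited table were Plec, which encodes the cross-linker plectin, at 1.60, and Gfap, the filament protein of astrocytes and of radial glia in some species, at -2.06 (Cuffdiff q = 0.00162 for both). The called genes that encode filament proteins, Nes and Gfap, did not share a direction. Fibroblasts also carry vimentin. Of 9 fibroblast markers 4 were tested, with Fn1 at 1.78 and Acta2 at 0.95 called higher in the authors' deposited table and none called lower. Col1a1 and Thy1 were tested and not called, and Col1a2, Col3a1, Dcn, Lum and Pdgfrb were not tested. The part of such cells in the values of Nes and Vim was not tested.

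Fabp7 encodes brain lipid-binding protein, which carries long-chain polyunsaturated fatty acids in radial glia and astrocytes (chromosome 10, 57784923 to 57788450, plus strand). In the authors' deposited table its log2 fold change was -1.13, with an implied error of 0.34 and a statistic of -3.29 (Cuffdiff q = 0.00162). By fold change it ranked at position 211 of the 519 entries called lower, and 4.78% of tested entries with a finite fold change lay below it. Removal of the GC trend took it to -0.82, where it remained called (recomputed q = 0.0275). Of 12 relatives in the fatty acid and retinoid binding family 2 were tested, Fabp3 and Fabp5, and neither was called, with a count of 0 also for an unadjusted Cuffdiff p under 0.05. The authors' deposited table gave Fabp3 -0.56 and Fabp5 -0.03, with implied errors of 1.31 and 0.31. Both are named here because they were the whole of the tested family.

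Astrocytes also express Fabp7, and 10 of 12 tested astrocyte markers had a negative log2 fold change. Of the 12, 7 were called lower and 0 higher, against 3.39% and 4.24% of all tested entries. Their median was -0.87, against -0.05 over all tested entries. By absolute log2 fold change the leading 4 of those called in the authors' deposited table were the water channel gene Aqp4 at -2.70, Ndrg2 at -2.42, Gfap at -2.06 and the lipoprotein gene Apoe at -1.65. Not called among the 12 were 5 genes, of which 2, Sox9 and Id3, had a positive log2 fold change. The part of astrocytes in the value of Fabp7 was not tested. The list was drawn up with earlier results of these data known, so its direction is a description.

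Hopx (chromosome 5, 77086986 to 77115123, minus strand) had the highest log2 fold change of the 8 tested members, at 1.16 in the authors' deposited table, with an implied error of 0.32 and a statistic of 3.68 (Cuffdiff q = 0.00162). It ranked at position 343 of the 649 entries called higher, and 95.5% of tested entries with a finite fold change lay below it. Removal of the GC trend moved it up to 1.32 (recomputed q = 0.0054). An antisense gene, Hopxos, overlaps Hopx exons in GENCODE, and whether strand was used in counting is not given in the sources used here, so reads of the pair cannot be told apart.

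A fixed list of 14 other genes reported in outer radial glia, where Hopx is a marker, was tested in full. Of these 3 were called higher and 1 lower, against 7.63% of all tested entries called, with a median of -0.16. Tnc, a matrix glycoprotein of the stem cell niche, was at 2.34 in the authors' deposited table, Moxd1, a monooxygenase-like gene, at 2.26, and Lgals3bp, a secreted glycoprotein, at 1.80. Moxd1 had an implied error of 0.78 (Cuffdiff q = 0.0269), against 0.32 for Tnc and 0.51 for Lgals3bp (Cuffdiff q = 0.00162 for both). Moxd1 lost its call at q under 0.01 and with p from a normal distribution (q = 0.102). On the other side Ptprz1, a receptor phosphatase, was called lower in the authors' deposited table, at -0.80 on the log2 scale (Cuffdiff q = 0.0373). Ptprz1 lost its call once the GC trend was removed, at -0.46 (recomputed q = 0.407), and also on centring, at -0.75 (recomputed q = 0.0677). With its fold change left as deposited, Ptprz1 also lost its call when p was read from its statistic (q = 0.0553). The loss on centring can therefore not be put down to the shift. The other 10 genes of this list were not called.

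The promoters of the 3 called members are shown because these genes carry the differences and because the targeted gene encodes a DNA-binding protein. RefSeq promoters on GRCm38.p6, running from 250 bases before to 50 after a transcription start, were found for 8 of the 9 members, 13 promoters in all, and Msi1 had no entry. Capitals mark the CCAAT box (CCAAT, or ATTGG on the other strand) and the GC box (GGGCGG, or CCGCCC on the other strand). Hopx has a pair of starts. The windows are chr10:57784673-57784972 (plus strand) for Fabp7, chr3:87970843-87971142 (plus strand) for Nes, and chr5:77115074-77115373 and chr5:77095218-77095517 (minus strand) for Hopx.
Fabp7: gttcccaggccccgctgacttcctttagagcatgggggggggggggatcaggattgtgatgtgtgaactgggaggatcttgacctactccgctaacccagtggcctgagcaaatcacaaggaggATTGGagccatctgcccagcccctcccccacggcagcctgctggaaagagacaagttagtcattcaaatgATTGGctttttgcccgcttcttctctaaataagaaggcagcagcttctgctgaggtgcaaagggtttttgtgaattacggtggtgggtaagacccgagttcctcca
Nes: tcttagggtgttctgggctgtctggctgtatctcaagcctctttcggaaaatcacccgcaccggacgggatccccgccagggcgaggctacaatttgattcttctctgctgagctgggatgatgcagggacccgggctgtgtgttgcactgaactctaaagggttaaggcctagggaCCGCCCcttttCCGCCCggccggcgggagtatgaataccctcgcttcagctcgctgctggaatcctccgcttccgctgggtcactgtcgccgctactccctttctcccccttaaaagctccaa
Hopx, upstream start: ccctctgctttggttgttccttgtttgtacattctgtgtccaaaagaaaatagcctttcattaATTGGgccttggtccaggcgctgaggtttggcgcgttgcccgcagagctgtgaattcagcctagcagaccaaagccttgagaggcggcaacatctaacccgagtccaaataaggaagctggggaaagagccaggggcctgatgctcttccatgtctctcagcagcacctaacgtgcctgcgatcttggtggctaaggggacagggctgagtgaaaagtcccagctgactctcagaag
Hopx, downstream start: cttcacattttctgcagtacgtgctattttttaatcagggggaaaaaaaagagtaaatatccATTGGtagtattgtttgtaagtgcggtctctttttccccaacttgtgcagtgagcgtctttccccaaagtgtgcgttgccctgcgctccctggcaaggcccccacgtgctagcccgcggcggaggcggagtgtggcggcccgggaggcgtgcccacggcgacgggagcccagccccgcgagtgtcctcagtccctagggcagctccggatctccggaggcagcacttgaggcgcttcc

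The forkhead motif TGTTTAC, sought on both strands, was in 0 of the 13 member promoters and in 3.65% of the 32851 promoters of the table. Its shorter form TGTTTA, which the longer motif contains, was in 13.4% of all promoters and, among the members, in the downstream promoter of Prom1. The RBPJ motif GTGGGAA of Notch signalling, the SOX motif ACAATG and the POU octamer ATGCAAAT were in none of the 13, against 6.38%, 12.6% and 1.74% of all promoters. In the lines above, Fabp7 held an inverted CCAAT box at bases -126 and -56 from its start, and the Hopx promoters held an inverted one each, at -187 and -188. Nes held no CCAAT box and a pair of inverted GC boxes at -73 and -62. CCAAT boxes were in 37.4% of all promoters and in 9 of the 13 member promoters. These 9 belong to 6 of the 8 members found, namely Fabp7, Hopx, Msi2, Pax6, Prom1 and Vim. GC boxes were in 35.7% of all promoters and in 5 of the 13 member promoters, which belong to 3 of the 8 members, Nes, Msi2 and Prom1. Msi2 contributes 3 overlapping windows to these counts. A match is a description of the letters in a window.

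Nr2e1 (chromosome 10, 42561971 to 42583588, minus strand) was the member nearest to the threshold among those not called. The authors' deposited table gave it a log2 fold change of -0.67, or 1.59-fold lower in q2, with an implied error of 0.35 (Cuffdiff q = 0.079, unadjusted p = 0.0072). Among 2296 tested entries with an implied error within 5% of its own, the smallest absolute log2 fold change called was 0.69. With the GC trend removed it was at -0.70 (recomputed q = 0.097). Genes listed as Nr2e1 targets numbered 6, all tested, of which 0 were called higher and 2 lower, Aqp4 and Gfap, with a median of -0.18. Both are astrocyte markers as well. In a list of 17 other orphan nuclear receptors and corepressors, 16 were tested, 2 called higher and 1 lower, with a median of 0.42. Nr4a3, an activity-induced receptor, stood at 1.57 in the authors' deposited table and Nr2f6 at 0.85, against Nr2f2 (COUP-TFII), a receptor of ventral and caudal progenitors, at -2.44. Nr2f6 lost its call once the GC trend was removed, at 0.52 (recomputed q = 0.234).

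Pax6 was at -0.10 in the authors' deposited table, with an implied error of 0.34 (Cuffdiff q = 0.878). Its locus there, chromosome 2 from 105536080 to 105697364, spans 161 kb against 28.5 kb for the Pax6 gene in GENCODE, and also covers the noncoding genes Pax6os1 and Paupar, entries of their own that were not tested. Pax6os1 is antisense to Pax6 and overlaps its exons. Of 8 other Pax genes 1 was tested, Pax9, a gene of pharyngeal pouch and skeletal development, at -0.05 in the authors' deposited table; it is named as the whole of the tested family, and Cuffdiff called 0, with 0 at an unadjusted p under 0.05. Among 41 other transcription factors of progenitors 38 were tested, 1 was called higher and 1 lower, and the median was 0.09. Sox1, a SoxB1 factor of neural progenitors, was at 1.45 (Cuffdiff q = 0.00162) and the Notch effector Hes5 at -0.82 (Cuffdiff q = 0.0188) in the authors' deposited table. The remaining 36, among them the stem cell factors Sox2 and Lhx2, were not called, and 8 of the 38 had an unadjusted p under 0.05. Emx1, Otx2 and Six3 were not tested.

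The Musashi genes had the smallest absolute log2 fold changes of the tested members. Msi1 (chromosome 5, 115429685 to 115454202, plus strand) was at 0.06 in the authors' deposited table, with an implied error of 0.32 (Cuffdiff q = 0.931). Msi2 (chromosome 11, 88339382 to 88718267, minus strand) was at 0.04 with an implied error of 0.52 (Cuffdiff q = 0.965) in that table, so it was measured less precisely. Among entries with an error like that of Msi2, the smallest absolute log2 fold change called was 1.11 and the largest not called was 1.13. For Msi1 these values were 0.64 and 0.71. The absence of a call therefore does not show that either gene was unchanged. With the GC trend removed, Msi1 turned to -0.17 and stayed without a call (recomputed q = 0.823). Of 23 other RNA-binding regulators of progenitors 19 were tested, 1 was called higher and 2 lower, with a median of -0.11. Igf2bp2, an mRNA-stabilising protein, was at 1.46 in the authors' deposited table, the neuronal protein gene Elavl3 at -1.26 and the splicing regulator Ptbp2 at -0.93, and Ptbp2 lost its call with the GC trend removed, at -0.66 (recomputed q = 0.0704). Of 7 genes listed as Musashi targets 5 were tested, and Jag1 at 2.22 and Numbl at 0.95 were called higher in the authors' deposited table, with 0 called lower and a median of -0.07. Numbl lost its call with the GC trend removed, at 0.67 (recomputed q = 0.226).

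Prom1 (chromosome 5, 43993622 to 44101736, minus strand) was listed at a log2 fold change of -0.05 in the authors' deposited table without a test, so no statement on a difference can be made. In a list of 10 membrane partners 9 were tested, 0 were called higher and 1 lower, with a median of -0.36. The called gene was Ttyh1, a membrane protein of neural stem cells, which the authors' deposited table lists at -1.21 (Cuffdiff q = 0.00162).

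Radial glia genes outside the 9 members were then counted by role. Surface and metabolic genes of radial glia gave 27 tested, of which 2 were called higher, 10 lower and 15 not. Over all tested entries 4.24% were called higher and 3.39% lower. The list had a median of -0.33 and a negative log2 fold change in 23 genes. Pla2g7, a lipoprotein-associated phospholipase, was at -2.72 and the adhesion molecule gene Vcam1 at -2.25 in the authors' deposited table, against Tnc at 2.34 and the matrix gene Sparc at 1.51. Taking out the GC trend left 2 genes of this list called higher and 9 lower. Several of these genes are shared with astrocytes, whose markers stand above, and their part was not tested. Of 25 apical junction and polarity genes 23 were found and 21 tested. Of the tested genes 3 were called higher and 2 lower, against 7.63% of all tested entries called, and the median was -0.07. Among those called, the first 4 by size in the authors' deposited table were the alpha-catenin gene Ctnna2 at -1.33, Numbl at 0.95, the giant cadherin gene Fat4 at 0.89 and the N-cadherin gene Cdh2 at -0.71. Cdh2 lost its call with the GC trend removed, at -0.45 (recomputed q = 0.293), and also when the fold changes were centred on their median, at -0.66 (recomputed q = 0.0546).

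**Figure D3:**
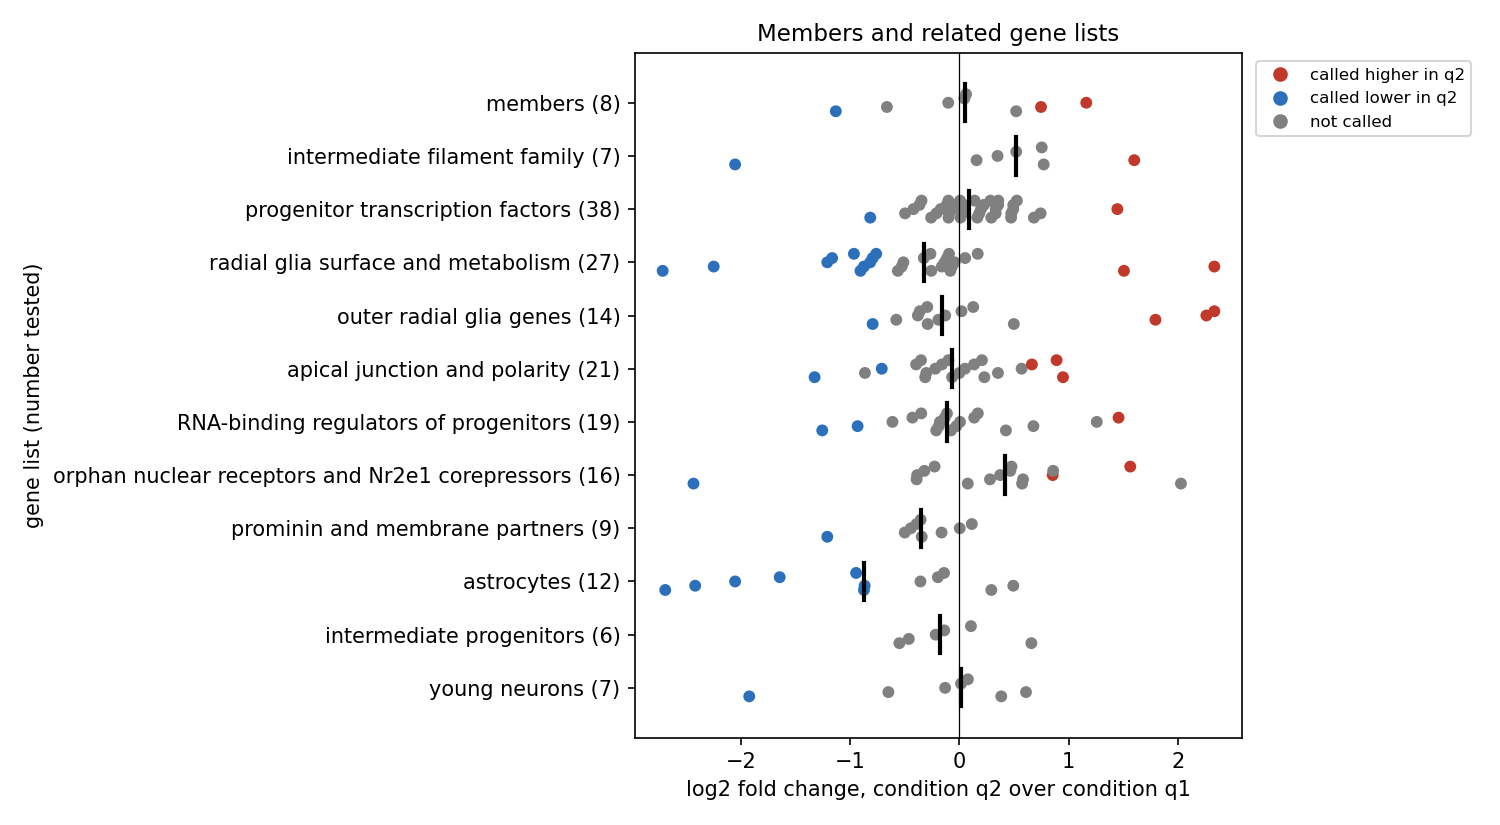
Tested genes of 12 lists, the members first (y axis, with how many were tested), placed by q2 over q1 log2 fold change from the authors' deposited table (x axis). Every dot is a gene, in red (called higher), blue (called lower) or grey (no call), and a black bar marks each median; the members have a median of 0.05 with genes on both sides, radial glia surface and metabolism genes one of -0.33 and astrocyte markers one of -0.87.

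Markers of the other cell types that such a culture can hold were mostly untested or not called, apart from those of the oligodendrocyte lineage. In that list 6 of 10 tested markers were called, in both directions, against 7.63% of all tested entries. Of 10 intermediate progenitor markers 6 were tested and Cuffdiff called 0, with 3 at an unadjusted p under 0.05, a median of -0.18, and Eomes, Neurod4, Neurog1 and Neurog2 not tested. Of 18 young neuron markers 7 were tested, with 1 called lower, Nrxn3, a presynaptic adhesion gene, at -1.93 in the authors' deposited table, and a median of 0.01. Of 12 oligodendrocyte lineage markers 10 were tested, 3 called higher and 3 lower, with a median of -0.27; called genes in the authors' deposited table included Pdgfra, a growth factor receptor gene of oligodendrocyte precursors, at -2.83, the myelin gene Mbp at 1.75 and the receptor gene Gpr17 at -1.42. Taking out the GC trend left 0 genes of this list called higher and 4 lower. Mbp was at 1.61 there, without a call (recomputed q = 0.112). It also lost its call on median centring (q = 0.0546), with the length trend removed (q = 0.0539), with p from a normal distribution (q = 0.441) and, with its fold change left as deposited, when p was read from its statistic (q = 0.0573). Of the ependymal, microglial and endothelial lists 1 of 5, 2 of 8 and 1 of 8 genes were tested, and Cuffdiff called 0 in each, with 0 at an unadjusted p under 0.05 and medians of 0.06, 1.18 and 0.71. The implied errors were 0.33 for the ependymal gene, 0.94 and 2.62 for the microglial genes and 0.54 for the endothelial gene. The microglial median is therefore imprecise. The part of these other cell types in the members' values was not tested.

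Genes beside the members were counted as well. Within 50 kb of the 9 loci lay 29 other entries, of which 18 were tested and Cuffdiff called 0, with 2 at an unadjusted p under 0.05. Against 7.63% called over all tested entries, 18 neighbours are too few to read anything from a count of 0. Near Fabp7 lay Smpdl3a, a phosphodiesterase gene, which the authors' deposited table puts at -0.73 (Cuffdiff q = 0.0539), and which was chosen for mention after its value was seen. No tested entry lay within 50 kb of Hopx. Among the 7 tested neighbours of Nes, 1 had an unadjusted p under 0.05.

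Transcript GC content ran alongside the fold changes over the whole table. Spearman's correlation across 11562 tested genes was 0.424, and the median log2 fold change in 50 equal bins of GC content went from -0.38 to 0.34. Genes share the same libraries, so this is a description with no p. Among the members, Fabp7 had the lowest GC content at 42.0%, where the bin median was -0.31, and Msi1 the highest at 57.3%, where it was 0.23. Hopx, at 46.4%, lay on the GC-poor side with a bin median of -0.15 and had the highest fold change of the 8. Nes at 55.6% had a bin median of 0.13, and Nr2e1 at 53.9% one of 0.03. Across the 8 tested members the Spearman correlation was 0.238, a weak relation over few genes.

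**Figure D4:**
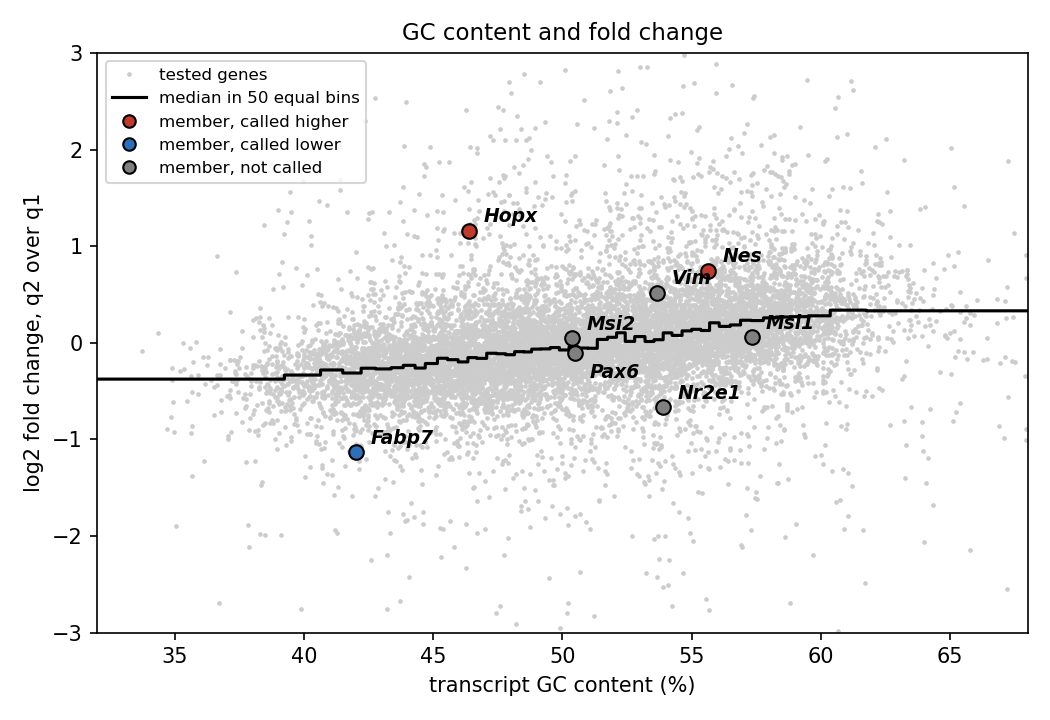
The q2 over q1 log2 fold change from the authors' deposited table (y axis) against transcript GC content in percent (x axis), for 11494 tested genes within the axes, with 68 outside them. Grey points are genes, the black line is the median in 50 equal bins, and large labelled points are the 8 tested members, where Hopx lies far above the line and Fabp7 and Nr2e1 lie below it.

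**Figure D5:**
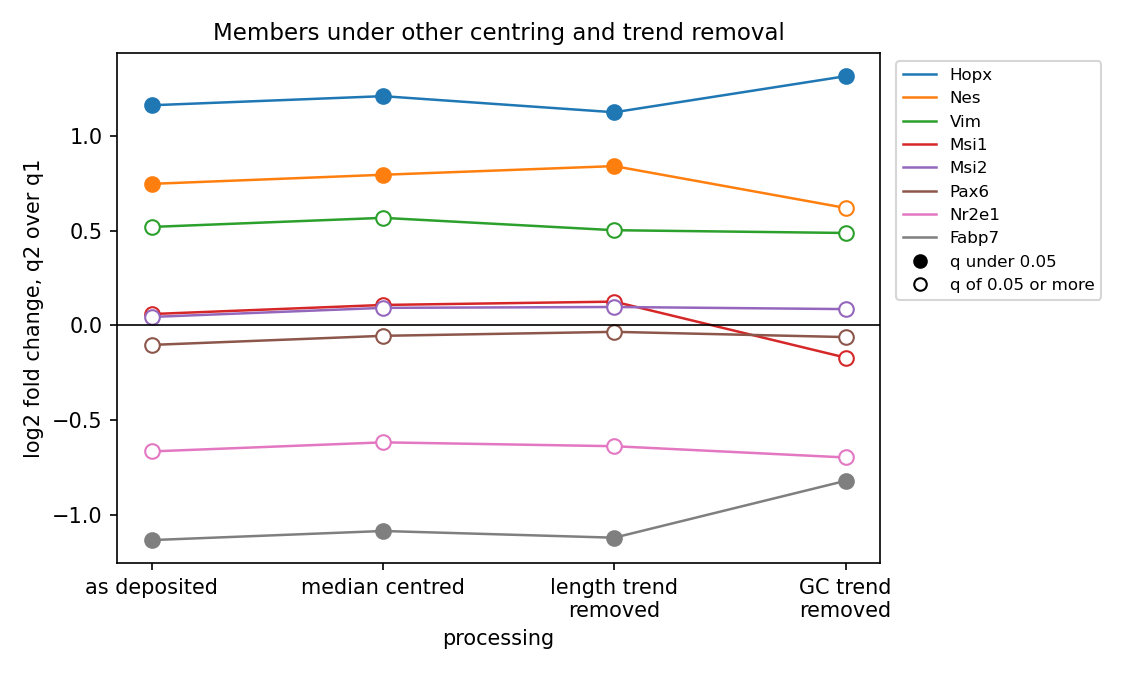
The q2 over q1 log2 fold change (y axis) of the 8 tested members as deposited by the authors, after median centring, and with the length or GC trend removed (x axis). Lines join the values of a gene, and filled points have a q under 0.05; Hopx and Fabp7 are filled throughout, Nes is open with the GC trend removed, and Msi1 crosses 0 there.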

How the data were processed

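The authors deposited 1 Cuffdiff table for the 4 libraries. The submitters' processing notes name Cufflinks 2.2.1, Cuffdiff, TopHat2 2.0.9 and build mm10 (GRCm38). Annotation, filters and strand use: not given in the sources used here. Per the file headers, the authors' values are a log2 fold change of q2 over q1, a test statistic (a score), a p-value and a q-value. The q-values equal a Benjamini-Hochberg adjustment over all tested genes and other entries. The table's 2 columns of values per condition match no group and were not used, so depth is unknown. No library can be left out, and what spread the authors' p-values measure, between cultures or technical, was not established here.

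Calls are entries with q under 0.05. Lists used entries with a symbol that occurs once. The share to set beside any list count is that over all tested entries, 7.63% called, 4.24% higher and 3.39% lower. For centring and for trends in 50 bins of GC content or length (GENCODE M21 transcripts, 11562 of 12159 genes, 95.1%), the shift was subtracted, the statistic rescaled and p read from an isotonic fit of the authors' p to their statistic, then adjusted over all tested entries ("recomputed q"). This procedure was tested on simulated data, which cannot show how well the isotonic fit holds for the authors' p. Their p is not set by the statistic alone. Mbp had a smaller statistic than Nes (2.08 against 2.35) and also a smaller p. A recomputed q can therefore differ from the authors' q without any shift of the fold change. The text names the 9 members, Foxp1 and, of each other list, called genes, or the 4 largest by absolute log2 fold change where more than 4 were called; other names are said to be exceptions, are given without values, or state which markers were not tested. A gene that this rule would name is not reported here. Members and lists were chosen with earlier results of these data known. Starts were converted to count from 1. Scripts ran in Python 3.11.15 with pandas 2.3.3, scikit-learn 1.9.0, scipy 1.17.1, matplotlib 3.10.9 and numpy 2.4.6.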

Additional observations from a re-analysis of the deposited data

How the results depend on the processing

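No paired analysis was possible because the deposited table holds no value per library, and for the same reason leaving out each replicate was not run. Under 9 alternatives, 8 of them fixed with the design and 1 (p read from the statistic) chosen after seeing the data, 2 to 4 of the members were called. Fabp7 and Hopx were called under each of the 9. Nes lost its call at q under 0.01, with a minimum absolute log2 fold change of 1, with p from a normal distribution (q = 0.296) and with the GC trend removed, at 0.62 (q = 0.112). Nr2e1 gained one at q under 0.1. Msi1, without a call, changed sign with the GC trend removed, at -0.17. Over all tested entries the 1168 calls became 667 at q under 0.01, 687 with the minimum fold change and 425 with p from a normal distribution. With that normal p, counts over the lists went from 12 to 5 for radial glia surface and metabolism, 7 to 4 for astrocytes, 6 to 3 for the oligodendrocyte lineage, 5 to 0 for apical junctions, 4 to 2 for outer radial glia, 3 to 1 for RNA-binding regulators and for nuclear receptors, and 2 to 1 for progenitor factors, Musashi targets and fibroblasts. The minimum fold change left 6 in radial glia surface and metabolism, 4 in astrocytes and 1 each in apical junctions, progenitor factors, Musashi targets and fibroblasts. At q under 0.01, 2 were left in apical junctions and in outer radial glia, and 1 in progenitor factors and in Musashi targets. With the GC trend removed apical junctions had 3, Musashi targets 1 and intermediate progenitors 1 called lower in place of 0, and the oligodendrocyte lineage 0 higher and 4 lower. These causes were not tested. Read depth is unknown, so what depth limits cannot be stated beyond the implied errors.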
